A study of Mus musculus with 62 samples.

Results

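A set of 6 genes of the contractile filaments and Z-disc of cardiac muscle was followed across mRNA, ribosome footprints and disome footprints of the mouse heart, with myoblasts as a contrast. The members were *Myl2*, *Myl3* and *Mybpc3* of the thick filament, *Tnnt2* and *Tnnc1* of the thin filament, and *Tcap* of the Z-disc. The rule lists them by name and sets no threshold on a measured value. For each gene, 1 transcript was used, that with the highest mean count. The 6 genes stood among 10476 named genes in a table of read counts per transcript, and all 6 were present.

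Cardiac muscle shortens when myosin heads of the thick filament pull on actin of the thin filament within the sarcomere. Calcium starts this by binding to troponin C, which moves with troponin T and the other troponins to open the binding sites on actin. The light chains stiffen the lever arm of myosin, and myosin-binding protein C sets how readily the heads engage. Mutations of these genes are known causes of inherited cardiomyopathy, and the ventricle makes their mRNAs in large amounts.

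Heart was taken at 10 weeks of age from male *Rpl3l*+/+ mice (WT) and *Rpl3l*-/- mice (KO), the latter derived from C57BL/6J zygotes in which CRISPR-Cas9 deleted an exon of *Rpl3l* and shifted the reading frame. *Rpl3l* encodes a paralog of the ribosomal protein RPL3 that is made in heart and skeletal muscle. The comparison of KO with WT asks whether ribosomes without RPL3L translate mRNAs of the heart differently. RNA-seq, Ribo-seq (mRNA fragments protected by single ribosomes) and Disome-seq (fragments protected by a pair of stacked ribosomes) each had 4 mice per genotype, and m6A-seq had 3 per genotype. C2C12 cells, an established mouse myoblast line, carried an empty retrovirus (control) or one encoding mouse RPL3 (RPL3 OE) or RPL3L (RPL3L OE), as puromycin-selected cells, with 3 cultures of each for RNA-seq and for Ribo-seq. The labels do not say which cultures were grown separately, while the authors describe the Ribo-seq samples as biologically independent. P-values for these cells measure the spread between the samples, and whether each culture was infected separately is not stated.

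Pausing of ribosomes at proline and alanine codons is a question of this study, and the members differed in how many such codons they hold. In the coding sequence of *Myl3*, the essential light chain of ventricular myosin, proline and alanine made 21.1% of 204 codons, a share above that of 95.8% of 10456 genes read from the GRCm38 reference. The shares were 14.3% in *Mybpc3*, 12.6% in *Tcap*, 11.5% in *Tnnt2* and 11.4% in *Myl2*, around the median of 12.2%. *Tnnc1*, which encodes the calcium-binding troponin C, had 5.59% of its 161 codons, more than only 1.74% of genes. Longer genes offer more stretches of 20 codons, and the members had 161 to 1277 codons against a median of 398 over all genes. The count in the densest stretch therefore also carries gene length. The contrast was sharpest in the densest stretch of 20 codons of each gene, shown here on the plus strand with proline and alanine codons in capitals. It held 19 such codons of 20 in *Myl3* (codons 15 to 34, chr9:110763787-110763846), 10 in *Mybpc3* (chr2:91119426-91120033, across an intron), 6 in *Tnnt2* (chr1:135845548-135845607), 6 in *Tcap* (chr11:98384435-98384494), 5 in *Myl2* (chr5:122105007-122106700, across an intron) and 4 in *Tnnc1* (chr14:31208364-31210073, across 2 introns), against a median of 7 over all genes.
Myl3: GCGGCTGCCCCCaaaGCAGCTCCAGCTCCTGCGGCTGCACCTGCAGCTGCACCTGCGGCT
Mybpc3: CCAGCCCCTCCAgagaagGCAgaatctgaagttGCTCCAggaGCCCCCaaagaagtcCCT
Tnnt2: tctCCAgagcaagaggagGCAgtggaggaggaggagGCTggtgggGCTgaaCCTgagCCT
Tcap: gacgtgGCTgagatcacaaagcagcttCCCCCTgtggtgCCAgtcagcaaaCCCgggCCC
Myl2: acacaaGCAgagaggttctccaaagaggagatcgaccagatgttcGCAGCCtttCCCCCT
Tnnc1: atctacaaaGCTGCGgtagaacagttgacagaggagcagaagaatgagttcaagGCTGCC

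The transcripts lie on the plus strand of GRCm38, as do all matched transcripts of the table. The *Myl2* transcript spans chr5:122100983-122113472 in 8 exons and *Myl3* chr9:110763646-110769798 in 7. *Mybpc3* spans chr2:91118144-91136510 in 35 exons, and its coding sequence of 3831 bases is the longest of the members. *Tnnt2* spans chr1:135840875-135852260 in 14 exons, *Tnnc1* chr14:31208312-31211729 in 6 and *Tcap* chr11:98383811-98384953 in 2. Reads with multiple mappings were kept, so that transcripts of 1 gene share reads. The 10 transcripts of *Tnnt2*, for example, had log2 fold changes in RNA-seq of KO against WT heart between -0.0236 and -0.0231, and its isoforms cannot be told apart in these counts.

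Depth ranged from 3594696 to 22425296 counts per library in heart RNA-seq, from 1606700 to 3192090 in heart Ribo-seq, and from 39016 to 175747 in Disome-seq, where precision was lowest. In C2C12 cells it ranged from 7647102 to 29746110 in RNA-seq and from 3167026 to 6093268 in Ribo-seq. *Rpl3l* itself stood at 369 to 541 CPM (a library's counts scaled to a common total after TMM normalization) in WT and at 24.4 to 40.4 CPM in KO heart RNA-seq. This count is per transcript and not of the deleted exon alone. In Ribo-seq it stood at 264 to 281 CPM in WT and at 5.96 to 13.6 CPM in KO heart. In Disome-seq the library labelled KO replicate 4 held 14 counts (354 CPM) of *Rpl3l*, within the WT range of 187 to 559 CPM, so that Disome-seq fold changes are also given without it. Of the 8 cardiomyocyte markers, *Pln* and *Ckm* were in the table, with a summed level of 4127 to 5691 CPM in heart RNA-seq against 0.235 to 1.03 CPM in C2C12 RNA-seq. Of 6 myoblast markers 4 were in the table, and each was above 1 CPM on average in every C2C12 RNA-seq group. In both heart RNA-seq groups 3 of the 4 were at 0. The other, *Des*, is also a sarcomere gene and made up the whole heart sum of 1477 to 1810 CPM. That sum was above the 317 to 578 CPM of the list in C2C12 RNA-seq. *Rpl3l* stood at 1985 to 2045 CPM in RPL3L OE cells and at 0.132 to 0.821 CPM in the other C2C12 RNA-seq libraries. The 2 airway markers in the table, *Scgb3a2* and *Bpifa1*, summed to more than 300 CPM in WT replicate 2 and KO replicates 1 and 3 in RNA-seq, and in WT replicate 2 and KO replicates 1 and 2 in Ribo-seq and Disome-seq. Fits without these libraries were added after the data had been seen. Between RNA-seq and the footprint libraries, numbers 2 and 3 of the KO group thus appeared exchanged.

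The members were among the most abundant mRNAs of the heart that were counted. No gene of the minus strand was identified in the counts, and of a list of 48 other sarcomere genes only 20 were present. Ranks here and below therefore hold among the genes counted, not among all genes of the heart. The transcripts used for the members together took up 4.39% to 5.20% of all RNA-seq counts of a heart library. In Ribo-seq they took up 2.03% to 2.52% of counts, and in Disome-seq 2.26% to 3.75%. The library totals also hold the other transcripts of these genes, which share reads. These values are therefore not the share of reads that the genes hold. Per kilobase of coding sequence in WT RNA-seq, *Myl2* ranked first of 5893 genes at 31477 ± 4318 CPM per kb (SD, n = 4), *Tnnt2* second at 16798.5 ± 2384 and *Myl3* was next at 15564 ± 2134. *Tnnc1* ranked 7 (8988 ± 1729 CPM per kb), *Tcap* 26 (2367 ± 612) and *Mybpc3* 102 (795 ± 97.0). The ranges of *Tnnt2* and *Myl3* overlapped, although *Tnnt2* was the higher in each of the 4 hearts, whereas all other neighbours in this order did not overlap. Of 3044 pairs of transcripts that share their coding exons and differ in other exons, 67.8% had identical RNA-seq counts, and levels per coding length are therefore approximate.

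The order changed between mRNA and footprints. In WT Ribo-seq, *Myl2* ranked first of 5480 genes at 9571 ± 704 CPM per kb, *Myl3* 3 at 8246 ± 765, *Tnnt2* 7 at 4267 ± 333, *Tnnc1* 14 at 3651 ± 285, *Tcap* 21 at 2593 ± 692 and *Mybpc3* 59 at 1227 ± 137. *Myl3* was 1.93 times *Tnnt2* in footprints per kilobase, with no overlap, whereas in mRNA *Tnnt2* was 1.08 times *Myl3*. The ranges of *Myl2* and *Myl3*, of *Tnnt2* and *Tnnc1*, and of *Tnnc1* and *Tcap* overlapped in Ribo-seq. In WT Disome-seq the light chains again led, with *Myl2* at 17014 ± 2785 and *Myl3* at 14910 ± 4151 CPM per kb, ranks 1 and 2 of 631 genes.

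**Figure D1:**
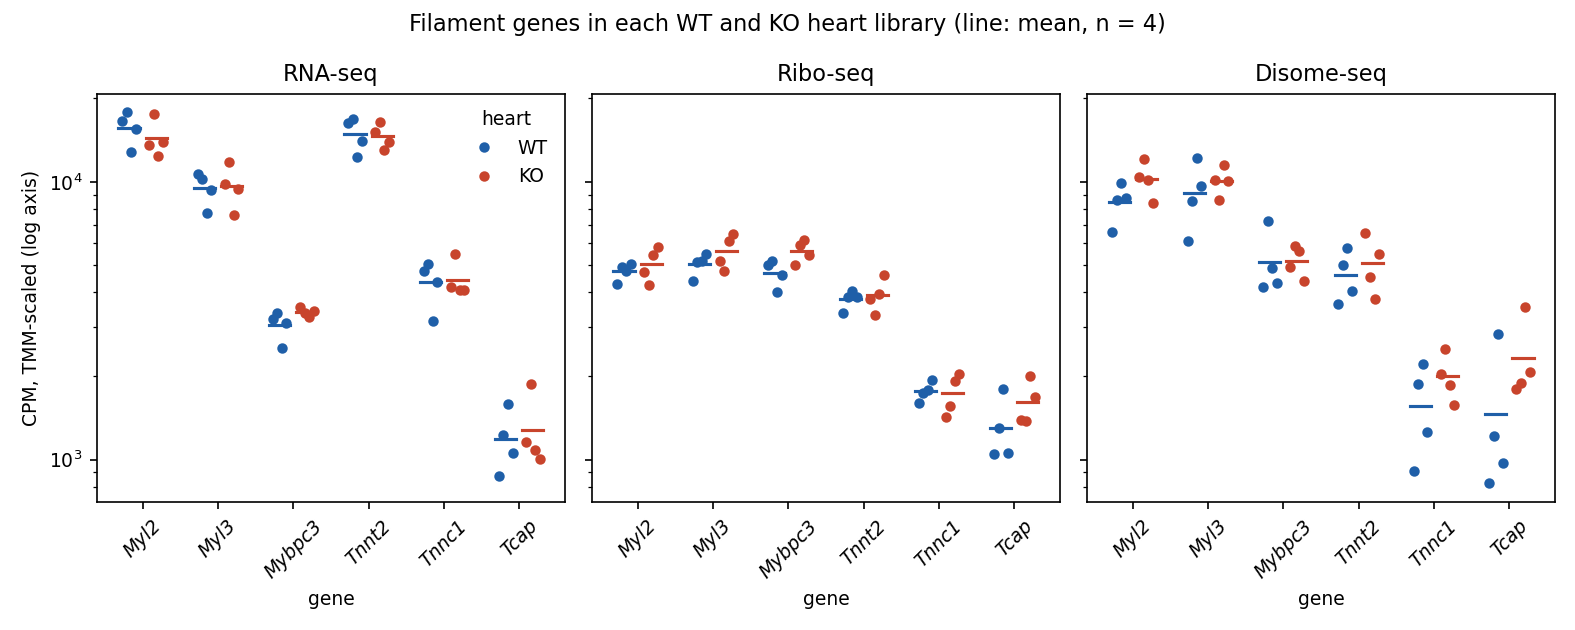
CPM after TMM scaling (log axis) of the 6 genes in each of 4 WT and 4 KO heart libraries, by assay, with lines at the means. WT and KO points overlap for each gene in each assay, and the lowest WT value of *Tcap* in Disome-seq, 822 CPM, is well under its highest, 2823 CPM.

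In thick filament genes, KO and WT hearts overlapped in every assay. *Myl2*, which encodes the regulatory light chain, stood at 16577, 17823, 12772 and 15530 CPM in WT replicates 1 to 4 and at 13522, 17589, 12428 and 13952 CPM in KO replicates 1 to 4 of RNA-seq. In Ribo-seq it stood at 4273, 4938, 4779 and 5076 CPM in WT and at 4718, 4260.08, 5464 and 5806 CPM in KO. The KO libraries held both the lowest and the highest Ribo-seq value, and in RNA-seq the highest value was from a WT heart. The log2 fold change of KO over WT was -0.13 in RNA-seq (standard error 0.14, 95% interval -0.43 to 0.18) and 0.09 in Ribo-seq (0.10, -0.12 to 0.30). Differences between genotypes in bulk tissue can reflect fewer cells of a type or less RNA per cell, which cannot be told apart.

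*Myl3* stood at 10705, 10270.2, 7752 and 9373 CPM in WT and at 9802, 11772, 7611 and 9391 CPM in KO RNA-seq. Replicate 3 was the lowest library of either genotype. In Ribo-seq it stood at 4382, 5137, 5186 and 5480.25 CPM in WT and at 5169, 4778, 6099 and 6504 CPM in KO, where KO replicates 3 and 4 lay above every WT heart. The log2 fold changes were 0.02 (standard error 0.15, 95% interval -0.29 to 0.33) in RNA-seq and 0.16 (0.10, -0.06 to 0.38) in Ribo-seq.

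*Mybpc3*, which encodes cardiac myosin-binding protein C, had the narrowest KO group in RNA-seq, 3529, 3367, 3249.57 and 3426 CPM, against 3200.36, 3369, 2513 and 3100.03 CPM in WT. The log2 fold change there was 0.16 (standard error 0.12, 95% interval -0.09 to 0.41). In Ribo-seq it stood at 5007, 5187, 4004 and 4613 CPM in WT and at 5014, 5932, 6168 and 5437 CPM in KO. KO replicates 2, 3 and 4 lay above all WT hearts, and KO replicate 1 lay within their range. The log2 fold change in Ribo-seq was 0.26 (standard error 0.09, 95% interval 0.06 to 0.46), with an unadjusted p of 0.0144 and an adjusted p of 0.193 (edgeR), which did not pass the threshold of 0.05. No other member had an unadjusted p under 0.05 in a heart comparison of KO with WT, and in Ribo-seq 2073 of 12695 transcripts had one.

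In the thin filament genes KO and WT hearts overlapped as well. *Tnnt2*, encoding cardiac troponin T, stood at 16344, 16808, 12274 and 14040.5 CPM in WT and at 15139, 16452, 12989 and 13921 CPM in KO RNA-seq. Its Ribo-seq levels were 3361, 3849.98, 4057 and 3839 CPM in WT and 3786, 3317, 3931 and 4610.4 CPM in KO. KO values bracketed those of WT in Ribo-seq, and WT values bracketed those of KO in RNA-seq. The log2 fold changes were -0.02 (standard error 0.14, 95% interval -0.31 to 0.26) and 0.05 (0.10, -0.16 to 0.26), respectively.

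*Tnnc1* stood at 4781, 5051, 3161 and 4371 CPM in WT and at 4168, 5489.7, 4069 and 4069.87 CPM in KO RNA-seq, where KO replicate 2 stood apart from the other KO hearts. In Ribo-seq it stood at 1601, 1733, 1786 and 1934 CPM in WT and at 1424, 1559, 1926 and 2029.74 CPM in KO, again with KO libraries at both ends. The log2 fold changes were 0.04 (standard error 0.15, 95% interval -0.29 to 0.36) and -0.02 (0.11, -0.25 to 0.21).

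*Tcap*, which encodes the titin cap protein telethonin of the Z-disc, varied most between mice. In RNA-seq it stood at 872, 1224, 1592 and 1055 CPM in WT and at 1156, 1871, 1087 and 1004 CPM in KO. In Ribo-seq it stood at 1048, 1301, 1789 and 1058 CPM in WT and at 1387, 1380.29, 2008 and 1683 CPM in KO. WT replicate 3 was the highest WT library in both assays, whereas the highest KO library was replicate 2 in RNA-seq and replicate 3 in Ribo-seq, the numbers that airway markers also placed differently in the 2 assays. The log2 fold changes were 0.11 (standard error 0.20, 95% interval -0.31 to 0.53) and 0.31 (0.16, -0.03 to 0.65).

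None of the 6 members passed an adjusted p of 0.05 in RNA-seq of KO against WT heart, where 0.0130% of all transcripts did (2 of 15394), and none in Ribo-seq, where 0.677% did (86 of 12695, edgeR). At an unadjusted p under 0.05 there were 0 members and 352 transcripts in RNA-seq, and 1 member and 2073 transcripts in Ribo-seq. DESeq2 called 0 members in both. The median log2 fold change of the members was 0.03 in RNA-seq and 0.12 in Ribo-seq, beside 0.00 and 0.01 over all transcripts tested, and 5 of 6 members were above 0 in Ribo-seq. In Ribo-seq the KO libraries with over 300 CPM of airway markers (replicate 1 at 1539 CPM and replicate 2 at 2061 CPM, against 0 and 1.23 CPM in replicates 3 and 4) were the lowest pair of KO libraries for each member but *Mybpc3*. Without these and WT replicate 2 (765 CPM), the Ribo-seq log2 fold changes were 0.26 for *Myl2*, 0.33 for *Myl3*, 0.35 for *Mybpc3*, 0.18 for *Tnnt2*, 0.16 for *Tnnc1* and 0.51 for *Tcap*. Their adjusted p-values then lay between 0.191 and 0.509 (edgeR). The 4 of 6 fat markers in the table also summed to 794 and 1413 CPM in KO Ribo-seq replicates 1 and 2. In KO replicates 3 and 4 they summed to 84.4 and 163 CPM. In WT Ribo-seq they were highest in replicate 4 (628 CPM), which was kept, with 473 CPM in replicate 2. The part of airway, fat or other tissue in these values was not tested further.

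TE (translational efficiency) is the change of footprints relative to that of mRNA, fitted as the interaction of genotype and assay. The log2 TE changes of KO over WT heart were 0.21 for *Myl2* (95% interval -0.16 to 0.59), 0.14 for *Myl3* (-0.25 to 0.54), 0.11 for *Mybpc3* (-0.21 to 0.42), 0.08 for *Tnnt2* (-0.27 to 0.43), -0.06 for *Tnnc1* (-0.48 to 0.36) and 0.21 for *Tcap* (-0.41 to 0.82). Each interval held 0, and the widest, that of *Tcap*, spanned more than a doubling between its ends. In the edgeR test 0 of 6 members passed, as did 0% of 12483 transcripts (803 of these, and 0 members, at an unadjusted p under 0.05). DESeq2 called 0 members and 22 of the 2077 transcripts to which it gave an adjusted p.

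**Figure D2:**
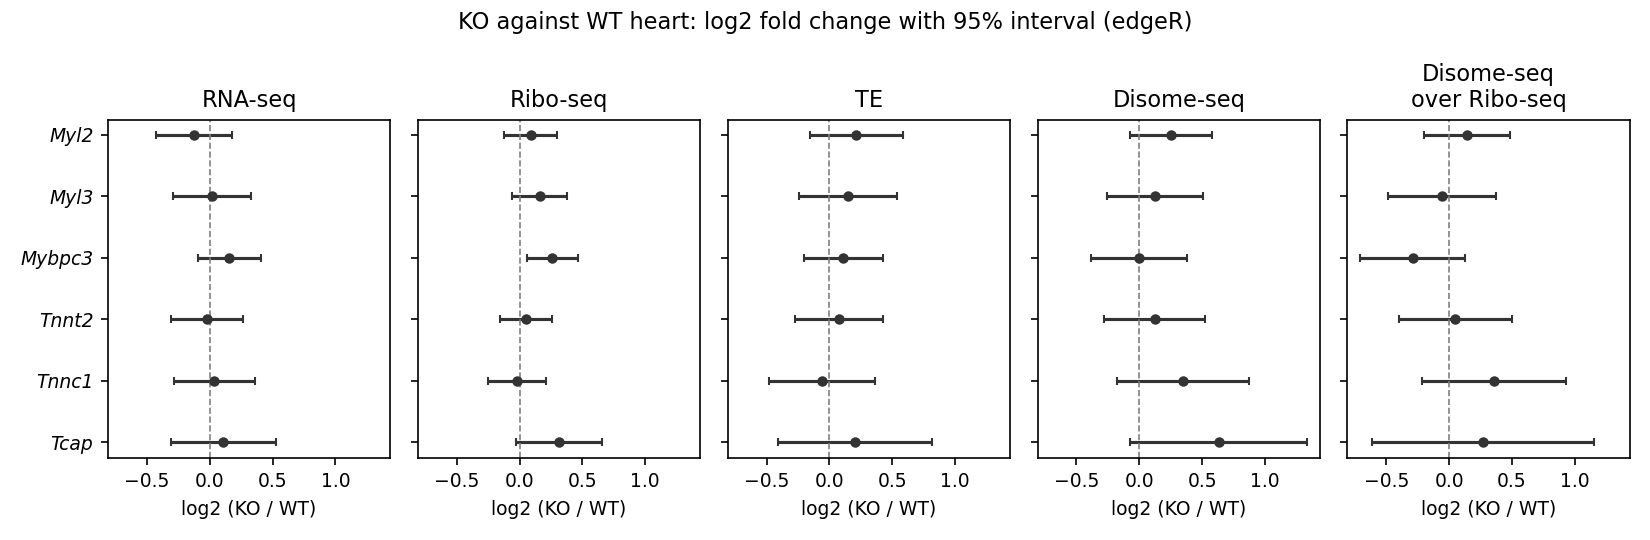
Log2 fold change of KO over WT heart (x axis) with 95% intervals from edgeR for the 6 genes in 5 comparisons, 4 mice per genotype and assay. Each interval holds 0 but that of *Mybpc3* in Ribo-seq (0.06 to 0.46), and the interval of *Tcap* for Disome-seq over Ribo-seq is the widest shown (-0.62 to 1.15).

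Disome footprints, which arise where a following ribosome runs into the one ahead, were counted at far lower depth. *Myl2* had 361 to 1045 counts per WT library and 332 to 1812 per KO library, and stood at 6591, 8618, 9932 and 8751 CPM in WT and at 10413, 12071, 10113 and 8397 CPM in KO. All but 1 of the KO libraries lay above the highest WT library, the exception being the library labelled KO replicate 4, which lay within the WT range. The log2 fold change was 0.25 (95% interval -0.08 to 0.58) over all libraries and 0.33 without that library.

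*Tcap* had the largest Disome-seq estimate and the largest error. It stood at 822, 1218, 2823 and 970 CPM in WT and at 1793, 1883, 3533 and 2074 CPM in KO, from 40 to 312 counts per library. All KO libraries lay above 3 of the 4 WT libraries, but WT replicate 3 lay above KO replicates 1, 2 and 4. The log2 fold change was 0.63 (standard error 0.33, 95% interval -0.07 to 1.34, unadjusted p = 0.0752 in edgeR). It was 0.67 (standard error 0.38) without the library labelled KO replicate 4. Leaving out 1 library gave 0.36 (without KO replicate 3) to 1.25 (without WT replicate 3, standard error 0.28, adjusted p = 0.0661 in edgeR), so that WT replicate 3 alone moved the fold by more than 1.5 times.

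*Tnnc1* ranged from 908 to 2205 CPM in WT and from 1568 to 2507 CPM in KO Disome-seq, with a log2 fold change of 0.35 (95% interval -0.18 to 0.87), or 0.43 without the library labelled KO replicate 4. *Myl3* ranged from 6104 to 12223 CPM in WT and from 8633 to 11526 CPM in KO, with all KO libraries inside the WT range (0.13, -0.25 to 0.51). *Tnnt2* ranged from 3618 to 5769 CPM in WT and from 3775 to 6557 CPM in KO (0.12, -0.28 to 0.53). *Mybpc3* ranged from 4183 to 7213 CPM in WT and from 4401 to 5851 CPM in KO, with a log2 fold change of -0.00421 and thus no direction. Without the library labelled KO replicate 4 the values were 0.12 for *Myl3*, 0.077 for *Tnnt2* and 0.059 for *Mybpc3*.

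Relative to single-ribosome footprints, disome footprints changed by a log2 value of 0.14 for *Myl2*, -0.06 for *Myl3*, -0.29 for *Mybpc3*, 0.05 for *Tnnt2*, 0.36 for *Tnnc1* and 0.27 for *Tcap*. Without replicate 4 of the KO group these were 0.29, 0.02, -0.24, 0.10, 0.53 and 0.33. In Disome-seq 0 of 6 members passed (0% of 1365 transcripts, with 60 transcripts and 0 members at an unadjusted p under 0.05), and in the ratio 0 of 6 members passed (0% of 1365, with 129 transcripts and 0 members). DESeq2 called 0 members in either comparison. The interval of *Tcap* for the ratio ran from -0.62 to 1.15.

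Among the members themselves, footprints per mRNA differed widely and in the same order in both genotypes. As the difference between mean log2 CPM in Ribo-seq and RNA-seq, on which the median WT gene stood at 0.55 (5262 genes), *Tnnt2* stood at -1.97 (standard error 0.12), *Myl2* at -1.71 (0.12), *Tnnc1* at -1.28 (0.16) and *Myl3* at -0.91 (0.12). These 4 abundant mRNAs were above only 2.32%, 3.36%, 6.04% and 9.54% of genes. *Tcap* stood at 0.13 (0.26) and *Mybpc3* at 0.63 (0.12), near the median. In KO heart the values were -1.91, -1.504, -1.36, -0.77, 0.36 and 0.73 in the same order of genes, with a median of 0.57. The 2 myosin light chains thus stood apart from each other in both genotypes, with *Myl3* the higher.

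Disome footprints per single footprint were highest for the light chains. In WT heart the difference of mean log2 CPM was 0.82 for both *Myl2* (standard error 0.14) and *Myl3* (0.22), above 77.3% and 76.9% of 616 genes. It was 0.27 (0.16) for *Tnnt2*, 0.10 (0.20) for *Mybpc3*, 0.02 (0.43) for *Tcap* and -0.26 (0.29) for *Tnnc1*, against a median of 0.17. In KO heart *Myl2* stood at 1.02 (0.15), *Myl3* at 0.84 (0.13), *Tcap* at 0.48 (0.26), *Tnnt2* at 0.36 (0.20), *Tnnc1* at 0.19 (0.19) and *Mybpc3* at -0.12 (0.12). Without the library labelled KO replicate 4, a setting added after seeing the data, these values were 1.11, 0.84, 0.52, 0.31, 0.30 and -0.04. The gene at the lowest value was thus *Tnnc1* in WT and *Mybpc3* in KO heart. No test was made of these differences between genes or of their relation to proline and alanine codons.

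**Figure D3:**
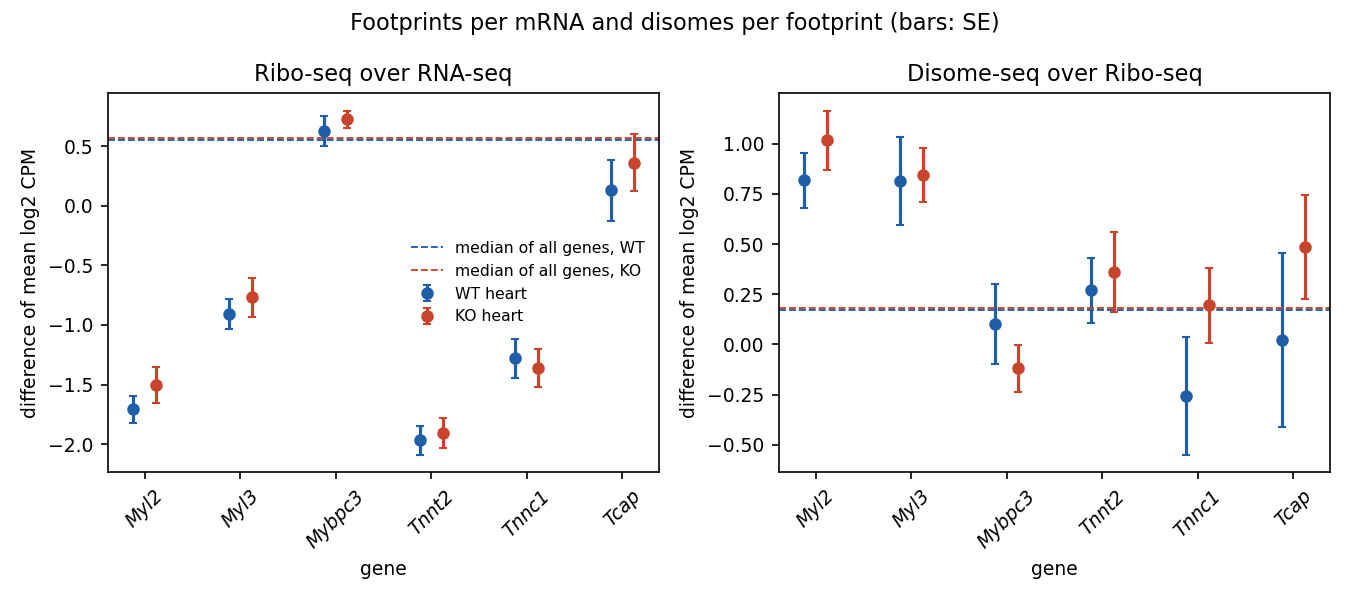
Difference of mean log2 CPM between Ribo-seq and RNA-seq (left) and between Disome-seq and Ribo-seq (right) for the 6 genes in WT and KO heart, with standard errors (n = 4 libraries per assay) and dashed lines at the median of all genes. *Tnnt2* is lowest on the left at -1.97 in WT, and the light chains are highest on the right at 0.82 in WT.

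Across the 8 heart RNA-seq libraries, 4 members moved together. Pearson's r of log2 CPM was between 0.86 and 0.92 for each pair of *Myl2*, *Myl3*, *Tnnt2* and *Tnnc1*. *Mybpc3* had r between 0.35 and 0.69 with these, and *Tcap* between -0.31 and 0.11 with all other members. The 5 genes most like the mean of the members, of 3720 with at least 10 CPM, were *Mrps26* (r = 0.98), *Mthfs* (0.97), *Sap18b* (0.97), *Hist1h2bc* (0.96) and *Trpt1* (0.96). These r values are descriptive over 8 libraries that share their depth and TMM factor between genes.

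Both m6A-seq peaks of members, of 3181 peaks in all, lay in exon 16 of *Mybpc3*, a coding exon of 106 bases. They are shown because they are the only stretches of the members in which the methylated-RNA precipitate was counted. The first spans chr2:91124587-91124623 and the second chr2:91124651-91124692 on GRCm38, and the table does not state whether starts count from 0 or 1 (read here as from 1). Neither holds GGAC, the letters of a common m6A context searched on the plus strand, which 16.8% of 196 peaks of 35 to 45 bases hold.
first peak: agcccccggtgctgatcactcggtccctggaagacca
second peak: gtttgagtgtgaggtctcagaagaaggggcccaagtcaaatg

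The first peak stood at 2420.15, 1937 and 2238 CPM of all peak counts in WT replicates 1 to 3 and at 2229, 2248 and 1979 CPM in KO. The second stood at 4795, 4171 and 5074 CPM in WT and at 5239.88, 4937 and 4893 CPM in KO. WT and KO overlapped in both peaks, each of which lay above 98% of all peaks. The log2 fold changes of KO over WT were 0.0019 (standard error 0.18) and 0.13 (0.16), and neither passed (0% of 2338 peaks tested in edgeR, with 221 peaks but 0 of these at an unadjusted p under 0.05, and 0 peaks by DESeq2). Precipitated counts were not divided by input, so that they also carry the level of the mRNA.

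Other sarcomere genes did not pass in the heart either. Of a list of 48, 20 were in the table, and 0 passed in RNA-seq (20 tested), Ribo-seq (18), TE (18), Disome-seq (13) or Disome-seq over Ribo-seq (13) of KO against WT heart in edgeR. At an unadjusted p under 0.05 there were 0, 2, 0, 0 and 1 of them in the same order. The smallest unadjusted p-values belonged to *Myot*, a Z-disc protein, in RNA-seq (log2 fold change -0.28, 95% interval -0.59 to 0.04), *Des*, the muscle intermediate filament desmin, in Ribo-seq (0.19, 0.02 to 0.36), *Smpx* in TE (-0.30, -0.72 to 0.11) and *Casq2*, the cardiac calsequestrin that binds calcium, in Disome-seq (0.46, -0.01 to 0.93) and its ratio to Ribo-seq (0.52, 0.06 to 0.98).

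In C2C12 myoblasts, the transcripts used for the members took up 0.0233% to 0.0307% of RNA-seq counts and 0.00520% to 0.00968% of Ribo-seq counts. Most of this was *Tnnt2*, and as in heart it is not the share of reads that the genes hold. *Myl2*, *Myl3*, *Mybpc3* and *Tcap* had 0 to 5 counts in each RNA-seq library and were not tested for mRNA. Tests in these cells therefore covered *Tnnt2* and *Tnnc1*, with *Mybpc3* in Ribo-seq alone. Comparisons of RPL3L OE and of RPL3 OE with control share the control cultures.

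*Tnnt2* was lowest in control cells and highest in RPL3L OE cells, for mRNA and for footprints. Its RNA-seq levels were 222, 225 and 228 CPM in control, 251, 254 and 248 CPM in RPL3 OE and 291, 296 and 275 CPM in RPL3L OE cells. Its Ribo-seq levels were 31.2, 38.9 and 43.3 CPM, 45.1, 55.3 and 52.9 CPM, and 68.2, 73.2 and 60.9 CPM in the same order of groups. In neither assay did any of the 3 groups overlap. In RNA-seq *Tnnt2* rose 1.28-fold with RPL3L (log2 0.35, standard error 0.04, adjusted p = 4.99e-12 in edgeR) and 1.11-fold with RPL3 (0.16, 0.04, adjusted p = 8.24e-04 in edgeR). The direct comparison gave 1.14-fold more in RPL3L OE than in RPL3 OE cells (0.19, 0.04, adjusted p = 2.88e-05 in edgeR).

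Footprints of *Tnnt2* rose 1.81-fold with RPL3L (log2 0.85, standard error 0.10, adjusted p = 8.84e-08 in edgeR) and 1.38-fold with RPL3 (0.46, 0.11, adjusted p = 0.00268 in edgeR), and were 1.31-fold higher in RPL3L OE than in RPL3 OE cells (0.39, 0.09, adjusted p = 9.05e-04 in edgeR). The rise with RPL3 was 0.32 on the log2 scale (adjusted p = 0.0758 in edgeR) without control replicate 1, the lowest of the control libraries. TE of *Tnnt2* rose with RPL3L (log2 0.50, 95% interval 0.29 to 0.70, adjusted p = 0.00298 in edgeR), but at 0.36 with an adjusted p of 0.1005 in edgeR without control replicate 1. With RPL3 the TE change was 0.31 (95% interval 0.09 to 0.53, adjusted p = 0.415 in edgeR), and between RPL3L OE and RPL3 OE cells it was 0.19 (0.01 to 0.37, adjusted p = 0.525 in edgeR). A difference between the TE changes under the 2 proteins was therefore not shown.

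*Tnnc1* followed another pattern, with its lowest levels in RPL3 OE cells. Its RNA-seq levels were 9.65, 10.8 and 8.59 CPM in control, 5.93, 5.28 and 7.24 CPM in RPL3 OE and 7.38, 9.59 and 9.62 CPM in RPL3L OE cells, from 45 to 256 counts. Its Ribo-seq levels were 8.51, 9.58 and 11.2 CPM, 4.32, 6.87 and 6.39 CPM, and 11.03, 14.01 and 9.97 CPM. RPL3 OE cells did not overlap with either other group, whereas control and RPL3L OE cells overlapped in both assays. Marker lists differed between the same groups. In RNA-seq the 6 of 8 skeletal muscle markers in the table, 3 of them above 1 CPM on average, summed to 30.0 to 33.5 CPM in control, 21.7 to 23.5 CPM in RPL3 OE and 36.4 to 39.4 CPM in RPL3L OE cells. The 4 myoblast markers summed to 485 to 499, 317 to 350 and 563 to 578 CPM, and the 8 fibroblast markers, 6 of them above 1 CPM, to 1742 to 1825, 2631 to 2659 and 1917 to 1957 CPM, in the same order of groups. Their part in the changes of *Tnnc1*, *Tnnt2* and *Mybpc3* was not tested.

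With RPL3, *Tnnc1* mRNA fell by 0.61 on the log2 scale (standard error 0.16, adjusted p = 0.00284 in edgeR), and its footprints fell by 0.71 (0.23, adjusted p = 0.0387 in edgeR). Against RPL3 OE, RPL3L OE cells had 1.43-fold more mRNA (log2 0.51, standard error 0.17, adjusted p = 0.0201 in edgeR) and 1.96-fold more footprints (0.97, 0.20, adjusted p = 4.57e-04 in edgeR). Against control, RPL3L OE cells differed by -0.10 in mRNA (95% interval -0.39 to 0.19) and 0.27 in footprints (-0.13 to 0.66), and neither passed. The fall of footprints with RPL3 did not pass without control replicate 2 (adjusted p = 0.0871), control replicate 3 (0.155) or RPL3 OE replicate 1 (0.199), and not in DESeq2 (0.130). The mRNA difference between RPL3L OE and RPL3 OE cells did not pass without RPL3 OE replicate 1 (adjusted p = 0.0534), RPL3 OE replicate 2 (0.107), RPL3L OE replicate 2 (0.0813) or RPL3L OE replicate 3 (0.0952), all in edgeR. Of its 2 transcripts, 1 passed in these 2 comparisons. Its TE changes were 0.36, -0.10 and 0.46 with RPL3L, with RPL3 and between them, and none passed.

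*Mybpc3* had 11 to 36 Ribo-seq counts per C2C12 library, although its RNA-seq counts were 0 in 8 of 9 libraries and 2 in the other. Its Ribo-seq levels were 7.33, 11.5 and 9.30 CPM in control, 5.62, 5.89 and 3.19 CPM in RPL3 OE and 6.42, 6.08 and 4.50 CPM in RPL3L OE cells. All cultures with a transgene lay below all control cultures. The log2 fold changes were -0.84 with RPL3 (standard error 0.25, adjusted p = 0.0214 in edgeR) and -0.71 with RPL3L (0.24, adjusted p = 0.0446 in edgeR), with 0.13 between the 2 (0.25, adjusted p = 0.777 in edgeR). The change with RPL3 did not pass in DESeq2 (adjusted p = 0.0764) nor without control replicate 2 (0.147) or RPL3 OE replicate 3 (0.0845). The change with RPL3L lost the call without control replicate 2 (0.226), control replicate 3 (0.0921), RPL3L OE replicate 1 (0.0511), replicate 2 (0.0708) or replicate 3 (0.201), with no filter (0.0511) and with library totals in place of TMM (0.0537), all in edgeR. The source of footprints without mRNA was not tested.

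These counts stand beside the share of all transcripts that passed. In RNA-seq 1 of 2 members passed for RPL3L OE against control (9.26% of all transcripts), 2 of 2 for RPL3 OE against control (16.1%) and 2 of 2 for RPL3L OE against RPL3 OE (27.0%). In Ribo-seq 2 of 3 members (11.1% of all), 3 of 3 (10.6%) and 2 of 3 (18.9%) passed in the same order of comparisons. In TE 1 of 2 (2.08%), 0 of 2 (0.0520%) and 0 of 2 (0.305%) passed, with 1 of 2 at an unadjusted p under 0.05 in each and 0 by DESeq2 in the last 2. With at most 3 members tested, these shares describe *Tnnt2*, *Tnnc1* and *Mybpc3* only.

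Among the other sarcomere genes in C2C12 cells, 5 fell and 0 rose of 11 tested in RNA-seq with RPL3. The largest falls were those of *Pdlim3* (log2 -2.61), *Tmod1*, a cap of the thin filament's pointed end (-1.47), and *Trim55* (-0.86). With RPL3L, 2 rose (*Flnc* 0.21 and *Des* 0.19) and 2 fell (*Tmod1* -0.67 and *Cryab* -0.25). RPL3L OE against RPL3 OE gave 5 that rose, led by *Pdlim3* (2.94), and 1 that fell, *Cryab* (-0.16). In Ribo-seq the counts were 0 risen and 5 fallen, 2 and 1, and 5 and 1 of 12 tested in the same order. In TE 0 of 11 passed with RPL3, 1 fell with RPL3L (*Cryab*, -0.26) and 0 differed between the 2 proteins.

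**Figure D4:**
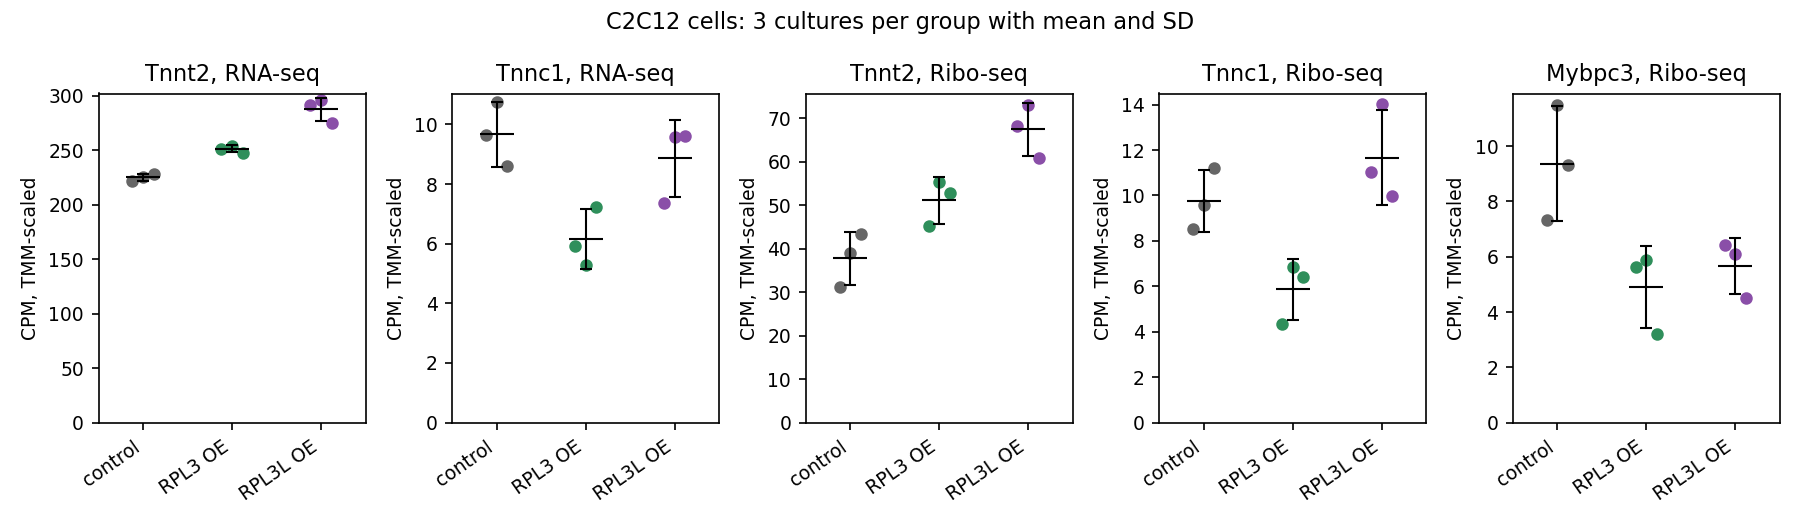
CPM after TMM scaling of *Tnnt2* and *Tnnc1* in RNA-seq and of *Tnnt2*, *Tnnc1* and *Mybpc3* in Ribo-seq of C2C12 cells, 3 cultures per group with mean and SD on axes from 0. The 3 groups are apart for *Tnnt2*, RPL3 OE is lowest for *Tnnc1*, and control is highest for *Mybpc3*.

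Myoblasts held almost no mRNA of the light chains, *Mybpc3* or *Tcap*. In control C2C12 RNA-seq, 59813766 counts in all held 0 of *Myl3* and 0 of *Mybpc3*, so that WT heart was at least 189719-fold and 60691-fold higher, against a floor of 3 counts over the group. *Myl2* had 5 counts, for a ratio of 187301 (95% counting interval 80260.2 to 576847), and *Tcap* had 3, for a ratio of 24000.4 (8213 to 116380). These ratios use library totals and their intervals cover counting error only.

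*Tnnt2* and *Tnnc1* had enough counts in both. *Tnnt2* mRNA was 112-fold higher in WT heart (95% interval 89.0 to 142) and its footprints were 137-fold higher (115 to 163), in comparisons in which 80.7% of all transcripts differed in RNA-seq and 83.2% in Ribo-seq (edgeR). With library totals in place of TMM, the median of all transcripts moved from -0.08 to -0.84 in RNA-seq and from -0.02 to -0.41 in Ribo-seq, mRNA of *Tnnt2* was 65.7-fold and its footprints 105-fold higher. *Tnnc1* was 769-fold higher in mRNA (554 to 1067) and 246-fold in footprints (207 to 294), or 460.2-fold and 188-fold with library totals. Heart and cells also differ in tissue, age and culture, which cannot be told apart here. By TE, *Tnnc1* was lower in heart (log2 -1.65, 95% interval -2.17 to -1.13, adjusted p = 1.91e-05 in edgeR, 47.9% of all transcripts called), whereas the difference of *Tnnt2* did not pass (0.27, -0.09 to 0.62, adjusted p = 0.207 in edgeR). With library totals the TE value of *Tnnt2* was 0.65 (adjusted p = 6.84e-04 in edgeR), while the median of all transcripts moved from -0.04 to 0.32, so that this call depends on the scaling.

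In control C2C12 cells *Tnnt2* had few footprints for its mRNA, as in heart. The difference of mean log2 CPM between Ribo-seq and RNA-seq was -2.59 (standard error 0.14), above only 0.828% of 5311 genes, in control, -2.30 in RPL3 OE and -2.10 in RPL3L OE cells. *Tnnc1* stood at 0.01 (0.15) in control cells, above 37.5% of genes. In Ribo-seq of control cells, *Myl2* had 26 counts, *Myl3* 12, *Tcap* 6 and *Mybpc3* 96 over the 3 libraries, with heart-to-myoblast ratios by library totals of 1974 (95% counting interval 1347 to 3021), 4526 (2591 to 8760), 2329 (1070.08 to 6347) and 528 (432 to 652).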

How the data were processed

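RNA-seq, Ribo-seq and Disome-seq were deposited as raw counts, 1 value per transcript and library, with no normalization by the authors. They trimmed adaptors, removed rRNA reads, aligned the rest to GRCm38.p6 and mm10 with STAR, keeping multiple mappings, and counted with featureCounts. Versions and, for RNA-seq, separate steps are not given in the sources used here. For m6A-seq, the authors deposited counts and TPM per peak common to 3 replicates of a genotype. The TPM were not used in tests.

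Each transcript stood on 2 identical lines, and 1 was kept. Identifiers were matched to GENCODE M21 (GRCm38), 23662 of 23877, all on the plus strand. Disome-seq columns of 1 mouse were taken as runs and summed. The main test was the quasi-likelihood model in edgeR 4.0.16 (R 4.3.3), with TMM within each assay, a mean count of at least 10, two-sided, Benjamini-Hochberg over all transcripts, threshold 0.05. TE and Disome-seq over Ribo-seq were interactions of assay and group. Models were also run on simulated counts with a fixed spread and planted changes larger than any member's change between KO and WT heart. That run does not show whether changes as small as those of the members would be found. Figures and tables used Python 3.11.15, pandas 2.3.3 and matplotlib 3.10.9.

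Other settings tried were a filter on a total of only 10 counts, a mean of at least 50, library totals, DESeq2 1.42.0, 1 transcript per gene, the replicate number as a block, either run and each replicate left out. Replicate numbers pair Ribo-seq with Disome-seq of the heart, since deviations from the group means of same-numbered libraries correlated in all 8 pairs (r from 0.19 to 0.89). No main model used this pairing, that of Disome-seq over Ribo-seq included. The standard errors of differences of mean log2 CPM between assays did not use it either. The pairing entered only in the setting with the replicate number as a block.

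The text names the 6 members, *Rpl3l*, up to 3 other sarcomere genes per direction by fold change (or by smallest p where none passed) and the 5 genes most like the members in heart RNA-seq. Members and lists were chosen with earlier results of these data known. tRNA-seq libraries are not analysed here. Intervals cover counting error only where said.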

Additional observations from a re-analysis of the deposited data

Results flagged for a closer look

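Dixon's test of the extreme value (95% level) was applied to the 36 combinations of a member and a heart group of 4 libraries, and chance flags about 1 group in 20. It picked out 2. *Tnnc1* in KO RNA-seq replicate 2 stood at 5489.7 CPM, while the other KO hearts stood at 4069 to 4168 CPM. *Tcap* in KO Disome-seq replicate 3 stood at 3533 CPM, from 175 counts, while the other KO hearts stood at 1793 to 2074 CPM. Both libraries had 0 CPM of the 2 airway markers, and the part of other tissue in these values was not tested.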

How the results depend on the processing

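Passing members were counted in 260 other settings, of which 242 gave a count within 1.5 times the reported one and 18 did not, and all 89 heart settings gave 0. With the replicate number as a block (replicate block) the counts were the same as without it. They were 0 in each heart comparison and 2, 1 and 2 in C2C12 RNA-seq (RPL3 OE and RPL3L OE against control, then against each other). In the same order they were 3, 2 and 2 in Ribo-seq and 0, 1 and 0 in TE. Same-numbered WT and KO hearts had r from -0.26 to -0.04 in RNA-seq, and KO numbers appeared exchanged between the assays of TE. The block therefore cannot back the unpaired heart counts there. In Ribo-seq, a mean count of at least 50 left only *Tnnt2* tested, giving 1 of 1 in each comparison. RPL3 OE against control gave 1 by DESeq2. RPL3L OE against control gave 1 without the filter and with library totals, and 1 of 1 with an adjusted p by DESeq2. Leaving out 1 replicate gave 1 to 2 members in RNA-seq of RPL3L OE against RPL3 OE, 1 to 3 and 1 to 2 in Ribo-seq of RPL3 OE and RPL3L OE against control, and 0 to 1 in TE of RPL3L OE.

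Signs turned for heart estimates near 0. Without the libraries high in airway markers, a setting added after seeing the data, RNA-seq gave 0.073 for *Myl2* and 0.092 for *Tnnt2*, Ribo-seq 0.16 for *Tnnc1*, Disome-seq 0.24 for *Mybpc3*, and the ratio to Ribo-seq -0.023 for *Myl2* and -0.046 for *Tnnt2*. *Mybpc3* in Disome-seq was 0.076 with no filter, 0.031 with library totals, 0.0072 by DESeq2, 0.0136 with 1 transcript per gene, 0.0139 with the replicate block and 0.094 in run 1. The ratio for *Myl3* was 0.018 with no filter, 0.045 with library totals, 0.0067 with 1 transcript per gene and 0.0448 in run 1. Leaving out 1 replicate gave ranges of -0.10 to 0.11 for *Myl3*, -0.11 to 0.040 for *Tnnt2*, -0.095 to 0.12 for *Tnnc1* and -0.14 to 0.28 for *Tcap* in RNA-seq, -0.039 to 0.12 for *Tnnt2* and -0.11 to 0.059 for *Tnnc1* in Ribo-seq, -0.038 to 0.21 and -0.19 to 0.10 for these in TE, -0.075 to 0.19 for *Mybpc3* in Disome-seq, and -0.10 to 0.18 for *Myl3* and -0.023 to 0.22 for *Tnnt2* in the ratio. In C2C12 cells they were -0.20 to 0.012 for *Tnnc1* mRNA with RPL3L, -0.041 to 0.30 for *Mybpc3* footprints between the proteins and -0.38 to 0.10 for TE of *Tnnc1* with RPL3. The cause was not tested.

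Counts over all transcripts moved by more than 1.5 times as follows. DESeq2 called 11 in heart RNA-seq, 184 in Ribo-seq, 22 in TE and 25 in the disome ratio. It gave an adjusted p to fewer transcripts than edgeR in heart RNA-seq, Ribo-seq and TE (10917, 7280 and 2077). In C2C12 RNA-seq of RPL3L OE against control it called 874. In C2C12 Ribo-seq it called 720, 688 and 1224 (RPL3 OE, RPL3L OE, between them), and in TE of RPL3 OE 21. With 1 transcript per gene, which tests fewer features, counts were 1 and 7 in heart RNA-seq and Ribo-seq, 1009, 558 and 1584 in C2C12 RNA-seq, 665, 702 and 1087 in Ribo-seq, 114 and 15 in TE of RPL3L OE against control and RPL3 OE, and 5268, 4971 and 2809 in heart against C2C12. Library totals gave 13 and 64 in TE of RPL3 OE against control and RPL3L OE against RPL3 OE, and heart against C2C12 Ribo-seq gave 7898 at a mean of at least 50. Disome-seq gave 3 with no filter, 2 in run 2, 2 without WT replicate 3, 2 without KO replicate 3 and 2 with the replicate block, which also gave 69 in TE of RPL3L OE against RPL3 OE and 8 in m6A-seq. Heart Ribo-seq gave 19 without the airway-high libraries and 17 to 60 without 1 replicate. Of its calls, 54 of 86 were higher in KO, and 42 of 105 with library totals. In heart against C2C12, 6286 of 12781 RNA-seq calls, 5896 of 11851 Ribo-seq calls and 3171 of 6694 TE calls were higher in heart, but 4455 of 13605, 4762 of 12100 and 4871 of 6856 with library totals. Without 1 replicate, C2C12 counts ranged from 823 to 1364 in RNA-seq and from 965 to 1702 in Ribo-seq of RPL3L OE, and from 3 to 74, 66 to 291 and 8 to 62 in TE.

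Same-numbered RNA-seq and Ribo-seq libraries of KO heart correlated at 0.75, -0.69, -0.76 and 0.65, and those of WT heart at 0.29 to 0.37 in 4 of 4 pairs. RNA-seq KO replicate 2 correlated best with Ribo-seq KO replicate 3 (0.79), and RNA-seq KO replicate 3 with Ribo-seq KO replicate 2 (0.82). Not every pair was above 0.1, and TE, like Disome-seq over Ribo-seq, was fitted without pairing. Leaving out KO replicate 2 or 3 in TE dropped that number in both assays, which may be different mice. Genotype or vector groups had r above 0.1 in only 4 of 24 pairs. Disome-seq rests on the fewest counts, down to 39016 in a library, and how far depth and spread between mice each widen its intervals was not tested.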
